A study of Macaca mulatta with 30 samples.

Results

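The genes described here carry, store and sense iron: the liver hormone hepcidin (HAMP), the transferrin receptors TFRC and TFR2, their partner HFE, the ferritin heavy and light chains FTH1 and FTL, the iron exporter ferroportin (SLC40A1), the iron importer SLC11A2 and the copper ferroxidase ceruloplasmin (CP). They were chosen by name, with earlier results of these data known. The list asked for 10 genes, and 9 were among the 21292 genes of the table; the plasma carrier transferrin (TF) was not analysed here. All 9 passed the filter on low values (at least 1 TPM in at least 6 libraries), as did 13550 genes in all. A gene's TPM is its share of all transcripts in a library, corrected for transcript length and scaled to a fixed total.

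Liver, pancreas and the 3 large salivary glands (parotid, submandibular, sublingual) of 6 rhesus macaques (Macaca mulatta) gave 1 library each, 30 in all, so each of the 5 tissues had 6 animals. The study set out to compare amylase genes between these tissues within each animal, and iron genes were not its subject. Females were animals 1 to 4, and animals 5 and 6 were males. The labels give flash-frozen, untreated tissue and name neither a genotype nor an age. RNA came from whole sections, so every library mixes the cell types of its tissue.

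In mammals iron travels in plasma on transferrin, enters cells through TFRC, and is held inside ferritin, a shell built from heavy and light chains. It leaves cells only through ferroportin, which hepcidin binds and removes, and ferroxidases such as ceruloplasmin oxidise the exported iron so that transferrin can take it up. Hepatocytes make hepcidin, and on their surface TFR2, HFE and hemojuvelin (HJV) take part in setting how much. Ferritin translation and TFRC mRNA stability are under control of iron regulatory proteins, so an mRNA level does not give the level of these proteins.

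The labelled tissues were checked against marker genes. The 8 hepatocyte markers summed to 36702 to 90210 TPM in the livers and to at most 4772 TPM elsewhere. In animal 4, 3 libraries were poor in the markers of their own tissue. Its pancreas held 3515 TPM of pancreatic acinar markers, where the other pancreases had 152183 to 317279. Salivary acinar markers summed to 2319 TPM in its submandibular gland against 235629 to 354926, and to 4384 TPM in its sublingual gland against 36545 to 347945. The same pancreas and submandibular gland were rich in red cell markers (13960 and 10908 TPM), adipocyte markers (18343 and 8411 TPM) and macrophage markers (402 and 1384 TPM). Skeletal muscle markers reached 72993 TPM in the parotid of animal 6. They were also high in the sublingual glands of animals 5 (23534 TPM) and 1 (7714 TPM) and in the parotid of animal 1 (5359 TPM). Results that rest on the named libraries of animal 4 or on the parotid of animal 6 are given with and without them. "Without the 3 libraries" means without the pancreas and submandibular gland of animal 4 and the parotid of animal 6. The other muscle-rich libraries are kept in those values. The sublingual gland of animal 4 is absent from values given without animal 4.

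Most of the iron genes were higher in liver than in each other tissue, and none was lower. Against parotid, 8 of the 9 were higher and 0 lower; against the submandibular and the sublingual gland, 6 were higher and 0 lower; against pancreas, 5 were higher and 0 lower (limma on log2(TPM + 1) with tissue and animal, Benjamini-Hochberg adjusted p below 0.05). HAMP, TFR2, CP, FTH1 and FTL passed in all 4 comparisons. Liver also gave many calls over all genes: 53.4% of all tested genes were higher in liver than in parotid and 4.61% lower, 45.1% and 5.68% against the submandibular gland, 18.7% and 12.8% against the sublingual gland, and 23.6% and 6.76% against pancreas. The median difference of the 9 genes was 2.79, 2.57, 2.17 and 1.33 on the log2 scale in these 4 comparisons, beside 0.84, 0.70, 0.10 and 0.36 over all tested genes. The gland libraries were filled by few genes: the 10 most abundant took a median of 79.6% of the total in parotid, 75.6% in the submandibular gland, 37.3% in the sublingual gland, 46.1% in pancreas and 23.1% in liver.

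Trimmed-mean scaling, which sets the bulk of genes level between libraries, brought the median of all genes to between -0.01 and 0.04 in these comparisons. Calls over all genes then split into 3186 higher and 2715 lower against parotid (7232 and 624 without it), 3503 and 2813 against the submandibular gland (6107 and 769), 3212 and 2758 against the sublingual gland (2540 and 1733), and 2928 and 2064 against pancreas (3198 and 916). Of the iron genes, 6, 6, 6 and 5 were higher in liver on that scale and 1 was lower, HFE against the submandibular gland. Their median differences became 1.93, 1.57, 1.94 and 0.88. HAMP, TFR2, CP, FTH1 and FTL were still higher in liver than in all 4 other tissues. Of these 5, FTH1 passed least clearly, and its calls against the sublingual gland and pancreas held under 6 of 13 alternative analyses each, against 13 of 13 for HAMP, TFR2, CP and FTL in every liver comparison.

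**Figure D1:**
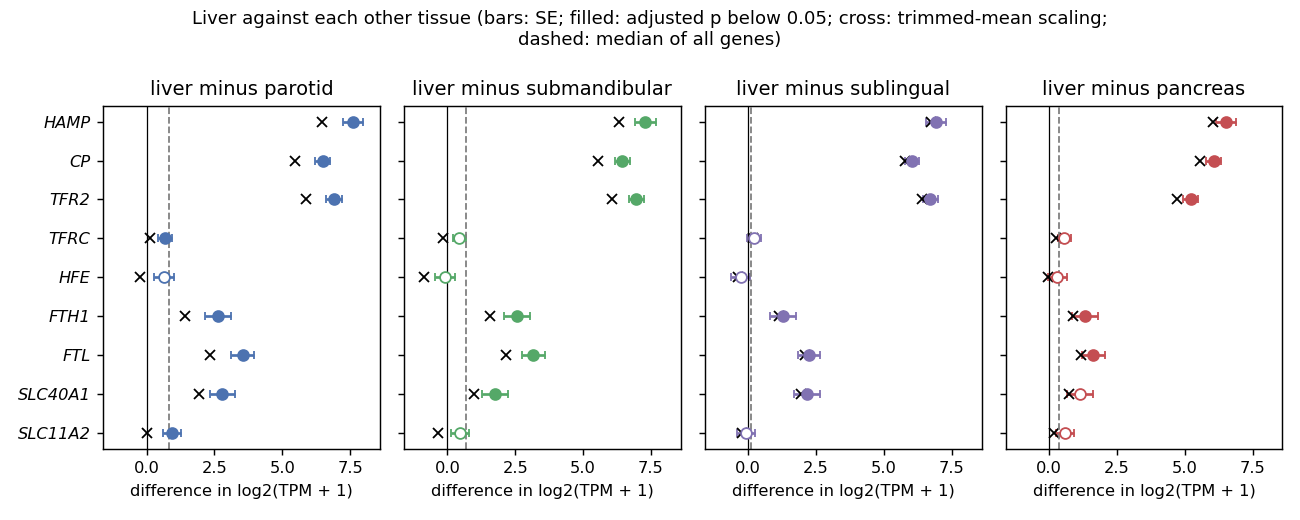
Difference in log2(TPM + 1) between liver and each other tissue for the 9 iron genes (circles, with SE bars; filled where the adjusted p is below 0.05), with the value after trimmed-mean scaling (crosses) and the median of all 13550 genes (dashed line). HAMP, CP and TFR2 lie at 5.22 or more in every panel, FTH1, FTL and SLC40A1 lie between 1.14 and 3.54, and TFRC, HFE and SLC11A2 lie near the dashed line.

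Hepcidin mRNA was abundant in liver and scarce elsewhere. HAMP stood at 2078, 1485, 785, 3629, 654 and 1410 TPM in the livers of animals 1 to 6 (1673 ± 1088, SD, n = 6). All 24 other libraries lay between 2.38 TPM in a parotid and 24.7 TPM in a sublingual gland. The groups did not overlap in any animal. On the log2 scale HAMP was higher in liver by 7.60 than in parotid (SE 0.38, adjusted p = 2.91e-15), by 7.29 than in the submandibular gland, by 6.92 than in the sublingual gland and by 6.52 than in pancreas, in 6 of 6 animals each time. Mean TPM in liver was 111 times that in pancreas and 229 times that in parotid. HAMP did not pass the threshold in any comparison among the other 4 tissues. The nearest was parotid against pancreas, a difference of -1.08 (adjusted p = 0.0555). It was -1.27 (adjusted p = 0.0218) without the 3 libraries and -0.40 (adjusted p = 0.513) after trimmed-mean scaling.

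HAMP varied widely between livers. The highest liver held 5.54 times the lowest, beside 5.23 times for SLC40A1, 2.56 times for TFR2 and 2.13 times for FTL. Animal 4, whose liver had the most HAMP, had the least TFR2 (213 TPM), HFE (1.52 TPM), FTH1 (643 TPM), SLC40A1 (4.48 TPM) and CP (182 TPM) of the 6 livers; it was picked out after its values were seen. Across the 6 livers, HAMP was set against each of the 8 other iron genes. Pearson's r ran from -0.74 for FTH1 (exact permutation p = 0.125) to 0.03 for TFRC, and none of the 8 passed (Benjamini-Hochberg adjusted p of 0.484 or more, two-sided). For TFR2, r was -0.67 (exact permutation p = 0.143) and Spearman's rho -0.60 (exact permutation p = 0.242). Without the 2 livers farthest from the median HAMP, r ran from -0.54 for FTH1 to 0.58 for HFE and was 0.09 for TFR2. So few livers cannot decide any of these relations.

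TFR2, which hepatocytes use to sense transferrin-bound iron, followed HAMP in being a liver transcript, with a second, lower level in pancreas. Livers held 317, 546, 336, 213, 488 and 422 TPM (387 ± 122, SD, n = 6). Pancreases held 9.72, 9.21, 12.3, 3.02, 10.6 and 13.4 TPM (9.70 ± 3.63, SD, n = 6), and the 18 salivary glands 1.10 to 3.88 TPM. Pancreas therefore lay between liver and the glands, apart from the acinar-poor pancreas of animal 4, which fell within the range of the sublingual glands. Against liver the log2 difference was 6.90, 6.96 and 6.71 for parotid, submandibular and sublingual gland and 5.22 for pancreas (SE 0.28, adjusted p of 1.34e-14 or less). TFR2 was lower in every gland than in pancreas, in 6 of 6 animals: the difference was -1.69 for parotid (adjusted p = 0.000103), -1.74 for the submandibular gland (8.34e-05) and -1.49 for the sublingual gland (0.000363). These were -1.91, -2.08 and -1.71 without the 3 libraries, and -1.16, -1.36 and -1.69 after trimmed-mean scaling, all past the threshold.

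HFE, the receptor partner mutated in hereditary haemochromatosis, was low in every tissue. Median TPM was 1.77 in parotid, 3.62 in the submandibular gland, 4.25 in the sublingual gland, 3.72 in pancreas and 4.40 in liver, and the ranges of all 5 tissues overlapped. Single libraries ran from 0.765 TPM in the pancreas of animal 5 to 10.6 TPM in the sublingual gland of the same animal. That gland held 23534 TPM of skeletal muscle markers. The difference from liver passed in none of the 4 comparisons as deposited. Only parotid against the sublingual gland passed, at -0.93 (SE 0.36, adjusted p = 0.0401, lower in 6 of 6 animals). It was -0.13 after trimmed-mean scaling (adjusted p = 0.776). That scaling turned liver against the submandibular gland from -0.09 to -0.87 (adjusted p = 0.00777), and the value was 0.27 without the 3 libraries.

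TFRC, the receptor by which most cells import transferrin iron, was the least abundant of the 9 genes. Median TPM was 0.529 in parotid, 0.959 in the submandibular gland, 1.34 in the sublingual gland, 0.753 in pancreas and 1.49 in liver. Libraries ranged from 0.245 TPM in the sublingual gland of animal 6 to 3.42 TPM in that of animal 5, so 1 tissue spanned the whole range. The sublingual gland of animal 5 held 23534 TPM of skeletal muscle markers. TFRC was higher in liver than in parotid by 0.68 (SE 0.25, adjusted p = 0.0217, 5 of 6 animals), a value of 0.11 after trimmed-mean scaling (adjusted p = 0.652). Leaving out animal 1, 2 or 3 also ended that call, with an adjusted p of at most 0.109. With values this close to the added 1 TPM, differences on this scale understate the ratio; mean TPM in liver was 2.52 times that in parotid.

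**Figure D2:**
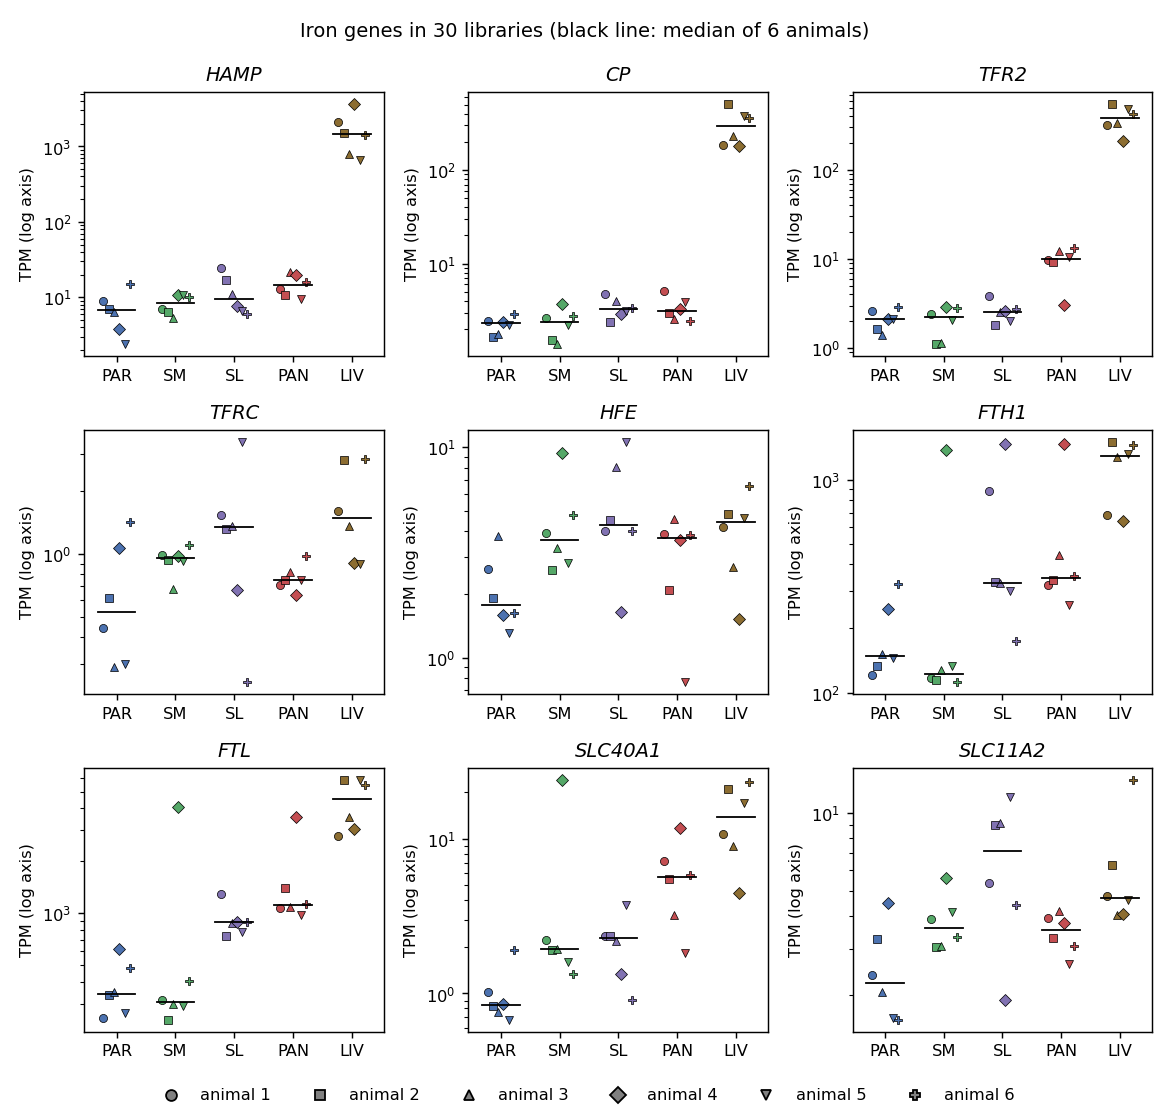
TPM (log axis) of each iron gene in the 30 libraries, by tissue (PAR, parotid; SM, submandibular gland; SL, sublingual gland; PAN, pancreas; LIV, liver), with a symbol per animal and a line at the median of 6. HAMP, CP and TFR2 are set apart in liver, and TFRC, HFE and SLC11A2 overlap across tissues. Outside liver, animal 4 (diamonds) is high for FTH1 in the submandibular gland, the sublingual gland and pancreas. It is also high for FTL in the submandibular gland and pancreas, and for SLC40A1 in the submandibular gland. The sublingual gland of animal 1 is high for FTH1 too (890 TPM).

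Ferritin mRNA, FTH1 and FTL together, was the most abundant of the set. It was highest in liver, lower in pancreas and the sublingual gland, and lowest in the other glands. FTL, the light chain that helps the iron core form, stood at 2756, 5848, 3571, 3049, 5862 and 5483 TPM in the livers (4428 ± 1457, SD, n = 6). Pancreases held 1064, 1388, 1085, 3558, 972 and 1121 TPM, sublingual glands 1286, 734, 879, 883, 777 and 889 TPM, submandibular glands 315, 242, 298, 4069, 291 and 403 TPM, and parotids 248, 334, 349, 615, 264 and 482 TPM. The highest pancreas and the highest submandibular gland, both from animal 4, lay inside the liver range; every other library outside liver lay below it. FTL was higher in liver than in parotid by 3.54 (SE 0.42, adjusted p = 1.33e-07), than in the submandibular gland by 3.16, than in the sublingual gland by 2.24 and than in pancreas by 1.64 (adjusted p = 0.00404).

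FTL also separated the tissues outside the liver. It was lower in parotid than in pancreas (-1.90, adjusted p = 0.00264, 6 of 6 animals) and lower in the submandibular gland than in pancreas in 5 of 6 (-1.52, adjusted p = 0.0198). Parotid was also below the sublingual gland in 6 of 6 (-1.30, adjusted p = 0.0182), with no overlap. Without the 3 libraries these were -1.69, -1.87 and -1.35, and the submandibular gland was then also lower than the sublingual gland (-1.52, adjusted p = 4.62e-05; -0.92 and 0.103 with them). After trimmed-mean scaling both differences from pancreas passed (-1.13 and -0.96), whereas parotid against the sublingual gland was -0.24 (adjusted p = 0.60). Leaving out any animal but animal 4 ended the call of the submandibular gland against pancreas (adjusted p of at most 0.139).

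FTH1, the ferritin chain with the ferroxidase site, was the less abundant of the 2 ferritin messages. Its liver mean lay below that of HAMP (1673 TPM). Livers held 681, 1506, 1273, 643, 1323 and 1464 TPM (1148 ± 386, SD, n = 6). Medians were 149 TPM in parotid, 122 TPM in the submandibular gland, 328 TPM in the sublingual gland and 345 TPM in pancreas. Outside liver, 3 libraries of animal 4 stood at liver level: 1381 TPM in the submandibular gland, 1468 TPM in the sublingual gland and 1470 TPM in pancreas. Parotid was the exception in that animal, at 246 TPM. The sublingual gland of animal 1, at 890 TPM, also lay inside the liver range, with 63.4 TPM of macrophage markers. The 3 libraries of animal 4 had few acinar markers and more macrophage markers (1384, 191 and 402 TPM). The other libraries of those tissues had 13 to 90.9 TPM of macrophage markers. The part of those cell types in the FTH1 level was not tested.

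Liver exceeded parotid in FTH1 by 2.63 (SE 0.47, adjusted p = 5.54e-05) and the submandibular gland by 2.57 (adjusted p = 8.22e-05). The differences from the sublingual gland (1.29, adjusted p = 0.0382) and pancreas (1.33, adjusted p = 0.0348) were smaller. Those 2 calls needed the animal term: without it the adjusted p was 0.0736 and 0.0685. Without animal 4 they were larger, 1.79 (adjusted p = 0.000264) and 1.83 (adjusted p = 0.0002). Leaving out animal 2, 3, 5 or 6 ended both (adjusted p of at most 0.177), and leaving out animal 1 ended the call against pancreas (0.0689). FTH1 was lower in parotid than in the sublingual gland (-1.33, adjusted p = 0.0277) and lower in the submandibular gland than there (-1.28, adjusted p = 0.0456). After trimmed-mean scaling these were -0.28 and -0.43, with adjusted p of 0.617 and 0.413.

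FTH1 and FTL have near-identical processed copies elsewhere in mammalian genomes, and how reads shared with such copies were assigned is not given in the sources used here. Their levels are uncertain to that extent. In their ratio within a library the fixed total cancels. FTL exceeded FTH1 in 29 of 30 libraries. The exception was the sublingual gland of animal 4, with 1468 TPM of FTH1 and 883 TPM of FTL. Mean FTH1 per FTL was 0.491 ± 0.105 in parotid, 0.392 ± 0.0765 in the submandibular gland, 0.627 ± 0.532 in the sublingual gland, 0.325 ± 0.072 in pancreas and 0.261 ± 0.0512 in liver (SD, n = 6).

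The log2 ratio of liver was the lowest on average. It was below that of parotid (mean difference -0.91, SD 0.40) in 6 of 6 animals and below that of the submandibular gland (-0.58, SD 0.37) in 6 of 6. Both gave an exact two-sided sign-flip permutation p of 0.03125, the smallest that 6 animals allow, and an adjusted p of 0.156 over the 10 tissue pairs. Against the sublingual gland the difference was -0.94 (SD 1.20, 5 of 6 animals, exact permutation p = 0.09375), and against pancreas -0.31 (SD 0.35, 5 of 6, exact permutation p = 0.0625). No pair passed after adjustment, and 2 of 10 were below 0.05 before it. In this design adjustment over 10 pairs needs 7 or more pairs at the smallest p to reach 0.05, so the test could not pass for a few pairs alone. Without the 3 libraries the difference from pancreas was -0.18.

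**Figure D3:**
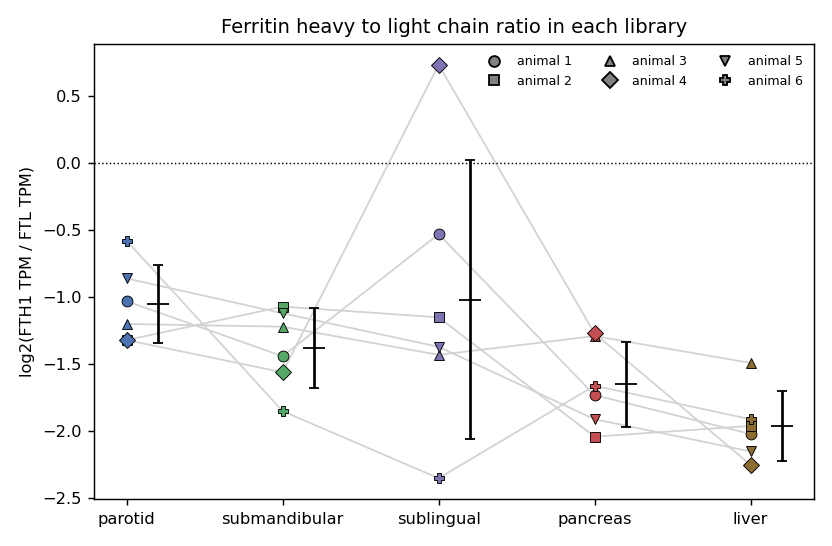
log2 of FTH1 TPM over FTL TPM in each library, by tissue, with grey lines joining the libraries of an animal and bars for the mean ± SD of 6. Liver values lie between -2.25 and -1.49, all below the dotted line of equal levels, and the sublingual glands spread from -2.35 to 0.73.

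SLC40A1, the only known iron exporter, was highest in liver and next in pancreas. Livers held 10.7, 21.1, 9.05, 4.48, 17.1 and 23.5 TPM (14.3 ± 7.43, SD, n = 6), and the highest was 5.23 times the lowest. Pancreases held 7.23, 5.51, 3.21, 11.8, 1.83 and 5.80 TPM, overlapping the livers. Medians were 0.838 TPM in parotid, 1.93 TPM in the submandibular gland and 2.27 TPM in the sublingual gland. The submandibular gland of animal 4 stood at 24.2 TPM, above every liver, while the other 5 held 1.33 to 2.21 TPM. SLC40A1 is abundant in macrophages that recycle iron, and that library also had the highest macrophage marker sum of all 30 (1384 TPM, against 449 to 928 TPM in livers); its part in this level was not tested.

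In liver SLC40A1 was higher than in parotid by 2.79 (SE 0.47, adjusted p = 2.23e-05), than in the submandibular gland by 1.76 (adjusted p = 0.00319) and than in the sublingual gland by 2.17 (adjusted p = 0.000611). The difference from pancreas, 1.14, did not pass (adjusted p = 0.0679); it was 1.46 and passed without the 3 libraries (adjusted p = 0.000414), and 1.61 without animal 4. SLC40A1 was lower in parotid than in pancreas (-1.65, adjusted p = 0.0171, 6 of 6 animals), also after trimmed-mean scaling (-1.21, adjusted p = 0.00688). Leaving out animal 1, 2 or 3 ended that call (adjusted p of at most 0.0718). The share of cells of a type and the RNA per cell cannot be told apart in these whole-tissue libraries, here or for any other gene.

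SLC11A2, which brings ferrous iron across the gut surface and out of endosomes, was the only one of the 9 genes whose highest median was not in liver. Sublingual glands held 5.35, 8.93, 9.12, 1.90, 11.5 and 4.40 TPM, with a median of 7.14 TPM, and livers 4.80, 6.27, 4.04, 4.09, 4.61 and 13.4 TPM, with a median of 4.71 TPM. Those 2 ranges overlapped widely, and the difference of -0.09 did not pass (adjusted p = 0.875). The sublingual gland with 11.5 TPM, that of animal 5, held 23534 TPM of skeletal muscle markers. Medians in submandibular gland, pancreas and parotid were 3.61, 3.53 and 2.21 TPM. SLC11A2 was lower in parotid than in liver (liver minus parotid 0.95, SE 0.33, adjusted p = 0.015) and than in the sublingual gland (-1.04, adjusted p = 0.0142), each in 5 of 6 animals. After trimmed-mean scaling neither passed (0.00 and -0.21), and without animal 6, whose liver was the highest, the first did not (0.65, adjusted p = 0.0975).

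CP, the plasma ferroxidase made by hepatocytes, was also set apart in liver. Livers held 185, 506, 232, 182, 382 and 360 TPM (308 ± 130, SD, n = 6), and the 24 other libraries 1.37 to 5.07 TPM, with no overlap. The log2 difference was 6.49 against parotid, 6.45 against the submandibular gland, 6.04 against the sublingual gland and 6.07 against pancreas (SE 0.27, adjusted p of 2.31e-16 or less). CP passed in no comparison among the other 4 tissues, where the largest difference was -0.45 for parotid against the sublingual gland (adjusted p = 0.175).

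HAMP, TFR2 and CP were the 3 of 9 iron genes for which all 6 livers exceeded all 24 other libraries. Over all tested genes the share was 6.76%. Outside liver these 3 genes stood at a level close to that of hepatocyte genes in general. Median ALB, APOA1, SERPINA1 and 5 other hepatocyte markers in parotid were 0.415 to 0.822% of their liver medians; the same ratio was 0.464% for HAMP, 0.56% for TFR2 and 0.776% for CP. In the submandibular gland the markers ran from 0.501 to 0.764%, with HAMP at 0.587%, TFR2 at 0.59% and CP at 0.813%. In the sublingual gland they ran from 0.705 to 0.962%, with 0.652%, 0.679% and 1.1% for the same genes. Pancreas had the markers at 0.779 to 7.52% (the highest was TTR, which islets also make), HAMP at 1% and CP at 1.04%, but TFR2 at 2.68%. Whether these low values came from cells of the tissue or from liver RNA in the libraries was not tested.

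The remaining genes stood far above that level in every tissue. FTH1 outside liver was at 9.41 to 26.6% of its liver median, FTL at 6.77 to 24.4% and SLC40A1 at 6.03 to 40.7%. For TFRC the range was 35.5 to 90.2%, for HFE 40.3 to 96.7% and for SLC11A2 47 to 152%. Parotid gave the lowest ratio for SLC40A1, TFRC, HFE and SLC11A2, and the submandibular gland for FTH1 and FTL.

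**Figure D4:**
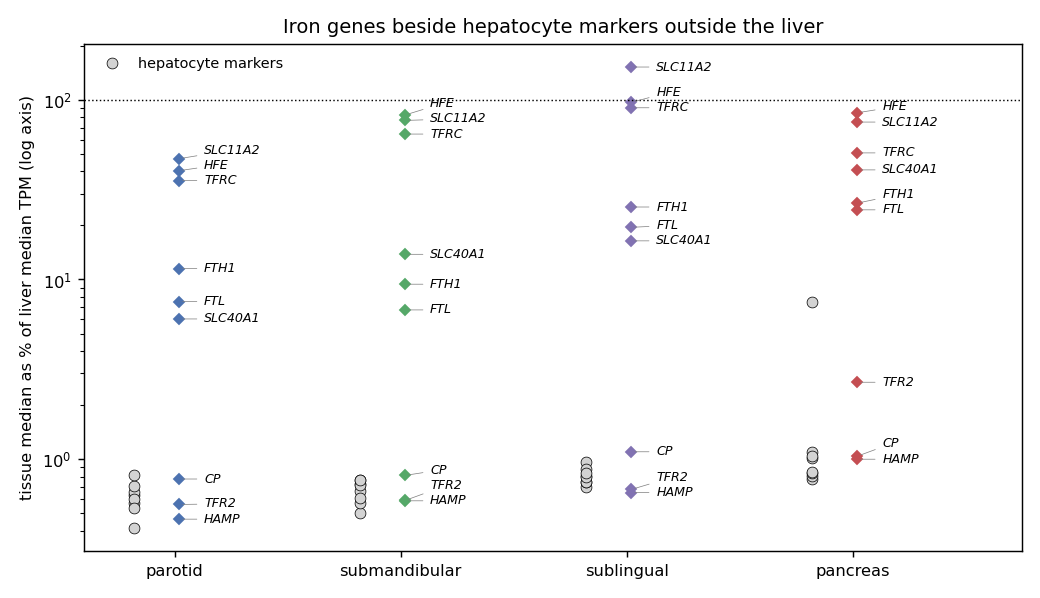
Median TPM in each other tissue as a percentage of the liver median (log axis), for the 9 iron genes (coloured diamonds) and 8 hepatocyte markers (grey circles), with a dotted line at liver level. HAMP, TFR2 and CP lie among or near the markers in the 3 glands, TFR2 lies above all markers but TTR in pancreas, and the other 6 genes lie between 6.03 and 152%.

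Outside liver, calls were few. Between parotid and pancreas, 0 iron genes were higher and 3 lower (TFR2, FTL and SLC40A1), beside 2.24% and 13.6% of all tested genes. Without the 3 libraries 5 were lower, while lower calls over all 13550 genes rose from 1838 to 3363. Between the submandibular gland and pancreas, 0 were higher and 2 lower (TFR2 and FTL), beside 2.25% and 7.46%. Without the 3 libraries 4 were lower, while lower calls over all genes rose from 1011 to 4185. Between the sublingual gland and pancreas only TFR2 was lower, beside 10.4% higher and 3.51% lower over all genes. Without the 3 libraries HFE was also higher (0.80, adjusted p = 0.0398), while higher calls over all genes rose from 1412 to 4335. Parotid and submandibular gland differed in 0 of the 9 genes, beside 0.133% and 0.214% (limma; 2 genes were lower in parotid at an unadjusted p below 0.05, and 0 passed without the animal term).

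Parotid had 4 genes lower than the sublingual gland (HFE, FTH1, FTL and SLC11A2) and 0 higher, beside 40.6% lower and 0.893% higher over all genes. The members' median of -0.68 was near the -0.70 of all genes, and after trimmed-mean scaling 0 of the 4 passed. Leaving out animal 1, 3 or 5 ended all 4 calls (adjusted p of 0.0547 to 0.187), leaving out animal 2 ended all but FTL, and leaving out animal 6 ended that of HFE (0.0534). Between the submandibular and the sublingual gland only FTH1 was lower, beside 27.2% lower and 0.753% higher over all genes, and it did not pass without the animal term (adjusted p = 0.0843) or without animal 1, 2, 3 or 5 (adjusted p of at most 0.274). Scaling moved the split of calls over all genes to 1142 higher and 1234 lower for parotid against the sublingual gland (121 and 5504 without it), and to 876 and 1119 for the submandibular gland (102 and 3685). Against pancreas the splits became 1208 and 1145 for parotid (303 and 1838), 1118 and 1060 for the submandibular gland (305 and 1011), and 1539 and 1351 for the sublingual gland (1412 and 475).

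Other genes of iron and haem handling were read from a list of 59, all in the table, of which 53 passed the filter. In liver 35 were higher and 1 lower than in parotid, 33 and 2 against the submandibular gland, 20 and 6 against the sublingual gland, and 25 and 2 against pancreas. The shares of all tested genes were 53.4% and 4.61%, 45.1% and 5.68%, 18.7% and 12.8%, and 23.6% and 6.76%. After trimmed-mean scaling these became 28 and 9, 25 and 12, 25 and 8, and 25 and 9. The median differences of 1.48, 1.17, 0.61 and 0.88 compare with 0.84, 0.70, 0.10 and 0.36 over all tested genes. For 7 of the 53 all livers exceeded all other libraries: TMPRSS6, FGL1, SLC39A14, HP, HPX, SLC46A1 and ALAS1. Over all tested genes that share was 6.76%.

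Of 18 tested genes that act on hepcidin output, 12, 12, 7 and 7 were higher in liver than in parotid, submandibular gland, sublingual gland and pancreas, beside 53.4%, 45.1%, 18.7% and 23.6% of all tested genes. After trimmed-mean scaling the splits were 12 higher and 4 lower, 10 and 5, 8 and 3, and 7 and 4. As deposited, BMP6 and ACVR2A were lower in liver than in the sublingual gland (picked out by count, after their values were seen). FGL1, a hepatocyte factor that restrains BMP signalling, had 278 to 525 TPM in livers and 1.53 to 6.71 TPM elsewhere, with a median log2 difference of 6.32 over the 4 comparisons. TMPRSS6, the protease that cleaves hemojuvelin, had 43.5 to 118 TPM in livers and 0.316 to 2.05 TPM elsewhere (median difference 5.32). BMP6, the iron-responsive ligand, had a median of 0.187 TPM in liver and 1.85 TPM in the sublingual gland (-1.27, adjusted p = 0.0031). STAT3, through which inflammation raises hepcidin, was higher in liver in all 4 comparisons (median difference 1.83).

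HJV, the hemojuvelin co-receptor, had 60.1, 113, 57.4, 48.5, 115 and 110 TPM in livers and a median difference of 5.00. It is also a skeletal muscle gene, and its high values outside liver came in libraries with muscle markers. The parotid of animal 6 held 136 TPM of HJV and 72993 TPM of muscle markers, and that of animal 1 held 14.1 and 5359 TPM. The sublingual glands of animals 5 and 1 held 23.1 and 3.39 TPM, with 23534 and 7714 TPM of muscle markers. The other 20 non-liver libraries held at most 1.29 TPM of HJV and 792 TPM of muscle markers.

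Of 8 genes of iron reduction and uptake, 4, 3, 3 and 3 were higher in liver in the same order of tissues, and 0, 0, 1 and 1 lower. Their median differences of 0.94, 0.42, 0.26 and 0.35 lay near those of all tested genes, and after trimmed-mean scaling 4, 3, 3 and 3 were higher and 2, 3, 1 and 2 lower. As deposited, 53.4%, 45.1%, 18.7% and 23.6% of all tested genes were higher in liver and 4.61%, 5.68%, 12.8% and 6.76% lower. SLC39A14, which imports iron that is not bound to transferrin, had 32.1 to 123 TPM in livers, and its pancreas level was next (23.4, 15.8, 10.9, 3.18, 6.12 and 15.3 TPM). Pancreas exceeded parotid in it (parotid minus pancreas -1.06, adjusted p = 0.0433; -0.45 and 0.462 after trimmed-mean scaling, and 0.0778 without the animal term) and the sublingual gland (-1.82, adjusted p = 0.000602), while the difference from the submandibular gland did not pass (-0.79, adjusted p = 0.172). The reductase STEAP3 and the lysosomal channel MCOLN1 were higher in liver in all 4 comparisons, with median differences of 2.70 and 1.34; MCOLN1 against the sublingual gland did not pass without the animal term (adjusted p = 0.0538). Among 4 secreted binders of iron and haem, 2 were higher in liver in every comparison, beside those same shares, and 2 were lower than in the sublingual gland. HP, which binds free haemoglobin, had 9939 to 16823 TPM in livers and 56.4 to 194 TPM elsewhere, and HPX, which binds haem, 951 to 2309 TPM and 5.79 to 19.1 TPM. Of 5 genes of haem uptake and export, 4, 3, 3 and 3 were higher in liver, again beside 53.4%, 45.1%, 18.7% and 23.6% of all tested genes. After trimmed-mean scaling 4, 3, 4 and 3 of the 5 were higher and 1 lower each time. The haem and folate carrier SLC46A1 (4.22), the hemopexin receptor LRP1 (2.81) and the haemoglobin receptor CD163 (1.60) had positive median differences and passed in all 4 comparisons. In the submandibular gland of animal 4 LRP1 stood at 144 TPM and CD163 at 23.3 TPM, above every liver, as SLC40A1 did.

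Of 6 genes of haem synthesis and breakdown, 5, 5, 3 and 5 were higher in liver and 1, BLVRA, was lower each time. After trimmed-mean scaling 3, 3, 4 and 5 were higher and 1 lower. As deposited, 53.4%, 45.1%, 18.7% and 23.6% of all tested genes were higher in liver and 4.61%, 5.68%, 12.8% and 6.76% lower. ALAS1, the first enzyme of haem synthesis, had 56.1 to 134 TPM in livers and at most 29.7 TPM elsewhere (median difference 3.41). HMOX1, which opens the haem ring, had a median of 24.1 TPM in liver and reached 49.9 TPM in the sublingual gland of animal 4, where the remaining sublingual glands had 0.153 to 2.83 TPM. BLVRB was higher in liver in all 4 comparisons (3.21), whereas BLVRA, the biliverdin reductase of adult bilirubin formation, was lower in all 4 (-1.50). BLVRA stood at 5.08 to 7.47 TPM in livers and at 40.6 to 135 TPM in sublingual glands. Its difference from pancreas (-1.05, adjusted p = 0.0405) was -0.57 without the 3 libraries (adjusted p = 0.055) and did not pass without the animal term (0.056). Of 5 mitochondrial iron genes, 5, 5, 1 and 4 were higher in liver (2, 3, 2 and 4 after trimmed-mean scaling), beside the same shares of all tested genes. NFS1, which serves iron-sulphur cluster assembly, was higher in liver in all 4 comparisons (1.56). The cytosolic aconitase and iron regulatory protein ACO1 was also higher in all 4 (2.83). It was the only 1 of 3 tested genes of iron responsive control that passed in any of them. Of 4 genes of ferritin handling, 2, 2, 0 and 0 were higher in liver and 0, 1, 0 and 0 lower, beside the same shares. On the trimmed-mean scale 0, 0, 1 and 0 of those 4 were higher and 1, 1, 0 and 1 lower.

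**Figure D5:**
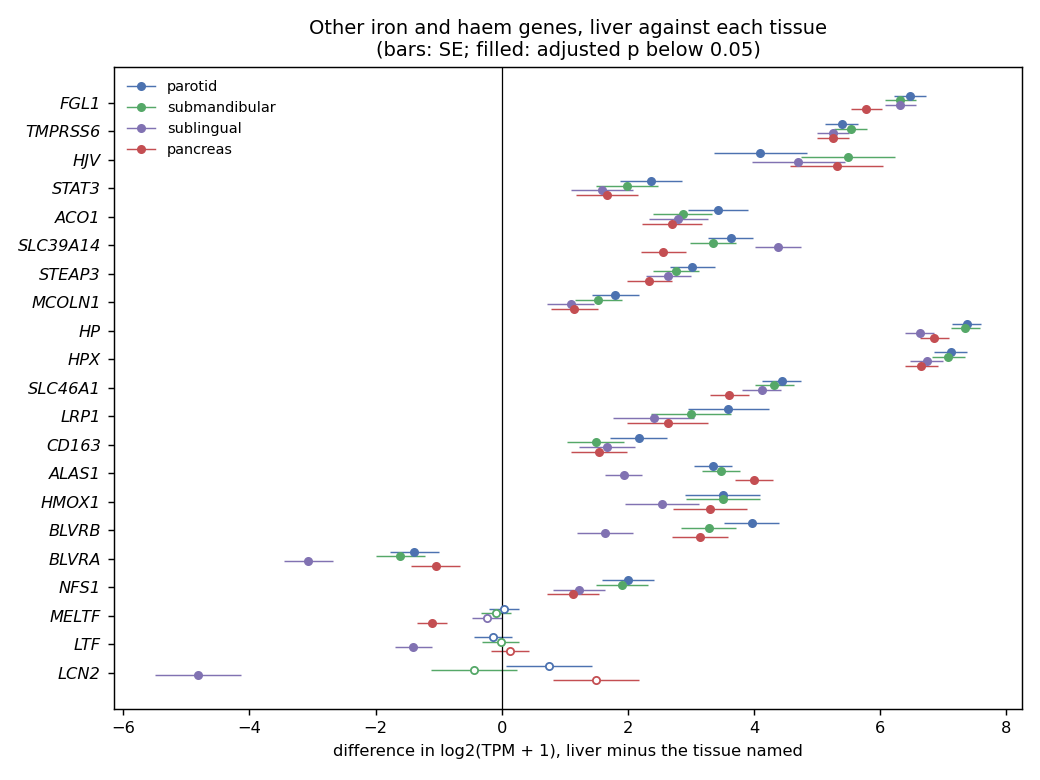
Difference in log2(TPM + 1) between liver and each other tissue (colours) for 21 further genes of iron and haem handling, with SE bars and filled symbols where the adjusted p is below 0.05. HP, HPX and FGL1 lie farthest to the right, BLVRA lies left of 0 in all 4 comparisons, and LCN2 lies at -4.82 against the sublingual gland.

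Sublingual gland and pancreas each had genes of the list that were higher there than in all 4 other tissues. LCN2, which binds the iron-carrying siderophores of bacteria, had 395, 3071, 5565, 106, 1096 and 3846 TPM in sublingual glands and at most 240 TPM in any other library. It was higher there than in all 4 other tissues, with a log2 difference of 6.31 from pancreas (SE 0.68, adjusted p = 2.17e-07) and of -4.82 for liver minus sublingual gland. The lowest sublingual value was that of animal 4, whose gland was poor in salivary markers. LTF, lactoferrin, had 1.04 to 15.6 TPM in sublingual glands and a median of at most 0.541 TPM elsewhere, and also passed against all 4; after trimmed-mean scaling parotid against the sublingual gland did not (-0.80, adjusted p = 0.0736). BLVRA was the third gene of this kind, and its differences from parotid and the submandibular gland were -0.65 and -0.64 after trimmed-mean scaling (adjusted p of 0.191 and 0.21). MELTF, a membrane-bound transferrin homologue, was higher in pancreas than in all 4 other tissues, with 4.09, 1.75, 5.98, 1.11, 3.57 and 3.06 TPM and differences from -1.14 to -0.88 for the other tissue minus pancreas (SE 0.24).

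Over all 53 genes, parotid had 6 lower and 0 higher than pancreas, the submandibular gland 4 lower and 0 higher, and the sublingual gland 2 lower and 7 higher. The shares of all tested genes were 13.6% lower and 2.24% higher, 7.46% and 2.25%, and 3.51% and 10.4%. After trimmed-mean scaling the list had 5 lower and 2 higher, 5 and 4, and 7 and 8. Parotid and submandibular gland differed in 0, also at an unadjusted p below 0.05 (limma) and without the animal term. The sublingual gland exceeded parotid in 20 and the submandibular gland in 16, and was below the submandibular gland in 2 (SLC39A8 and SLC39A14, picked out by count; SLC39A14 did not pass without the animal term, adjusted p = 0.0619). Over all tested genes 40.6% were lower in parotid and 27.2% lower in the submandibular gland than in the sublingual gland, near the shares in the list. After trimmed-mean scaling 4 were higher and 7 lower in parotid, and 3 higher and 8 lower in the submandibular gland. BMP2, ID1 and IL6R were lower in both parotid and submandibular gland than in pancreas, with log2 differences from -2.54 to -1.44.

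Over the 30 libraries the genes nearest to each iron gene in log2(TPM + 1) were read off as a description, since the libraries share animals, tissues and a fixed total. HAMP was nearest to ORM1 (Pearson's r = 0.986) and GLYAT (0.985), TFR2 to CYP2C76 and ENTPD8 (both 0.994), and CP to SLC10A1 (0.998) and CFHR2 (0.997). Genes whose names start with LOC were left out of this reading and of the counts that follow. Among the others, CP had 304 genes with r above 0.95, TFR2 242 and HAMP 224. FTH1 had 2 such genes (ACOT7, 0.972, and UBE2D3, 0.952), FTL 5 (led by HSD17B11, 0.967, and SERPING1, 0.964) and SLC40A1 1 (PID1, 0.956, followed by LIPA, 0.945). TFRC, HFE and SLC11A2 had 0; their nearest genes were HIPK3 (0.900) and ZNF770 (0.882), SLC35B2 (0.812) and ATP6AP1 (0.805), and ADGRA3 (0.874) and SLC25A40 (0.867).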

How the data were processed

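The authors deposited 1 table of TPM values, with a row per gene name and a column per library. Per the submitters' processing notes, kallisto was among the tools; its version, its transcriptome and the way transcripts were summed are not given in the sources used here. RNA was taken from 3 sections per sample and sequenced as paired reads of 150 bases, per the labels' protocols. Each column sums to the same total, so depth is unknown, no counting interval is given, and values of all genes depend on the few that dominate a library. Libraries held 8477 to 13515 genes with at least 1 TPM. No pair of libraries was identical (highest correlation 0.979), and 0 value columns were unmatched.

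The test was that of limma 3.58.1 (R 4.3.3), run on log2(TPM + 1), which makes low genes appear to differ less. It took in the 13550 genes that reached 1 TPM in 6 or more libraries. Tissue and animal were fitted to all 30 libraries, with variances that follow mean expression. P-values are two-sided and adjusted within each of the 10 tissue pairs, with a threshold of 0.05. Animal is in the model because the same animals gave all tissues; libraries of 1 animal deviated from tissue means with a mean correlation of 0.161, against -0.0186 between animals. The ferritin ratio used an exact sign-flip test over 64 patterns. Simulated data for 13550 genes in all 30 libraries, 200 of them changed in liver, were tested for liver against parotid. They gave 77.8% recovery at a log2 change of 2 and 100% at 4, and 6.32% of the calls made were false. Apart from those 200 genes the simulated tissues did not differ, noise was normal and no total was fixed. The real libraries had many more differing genes and a fixed total, so these rates need not hold for them.

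The members and lists were chosen with earlier results of these data known, as was the choice of the 3 libraries left out. All members are named. 1 gene of the wider list is not reported here and is left out of its counts. From the wider list, up to 4 genes a role are named that passed in all 4 liver comparisons, by the size of the median difference, and genes higher in 1 other tissue than in all 4 others. For each member the 2 named genes with the highest correlation are given. Alternatives were no animal term, only the 12 libraries of a pair, trimmed-mean scaling (30% of log ratios and 5% of levels trimmed at each end), a pseudocount of 0.1, no filter, a filter of 5 TPM, leaving out the 3 libraries, and leaving out each animal. The genome build is not stated, so no coordinates or sequences are given.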

Additional observations from a re-analysis of the deposited data

Results flagged for a closer look

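Among 50 sets of 6 libraries (each gene, and the ferritin ratio, in each tissue), 9 held a library set far apart from the other 5 by Dixon's criterion; chance gives about 1 in 20, or 2.5. Animal 4 gave 6 of the values. Its submandibular gland had 1381 TPM of FTH1 (next highest 134), 4069 TPM of FTL (403) and 24.2 TPM of SLC40A1 (2.21). Its pancreas had 1470 TPM of FTH1 (445) and 3558 TPM of FTL (1388), and the lowest TFR2, 3.02 TPM (next lowest 9.21). The sublingual gland of animal 1 had 1286 TPM of FTL (889). SLC40A1 stood at 1.9 TPM in the parotid of animal 6 (1.02), the library richest in muscle markers. SLC11A2 stood at 13.4 TPM in the liver of animal 6 (6.27). Of 100 differences compared by sex, 1 was flagged, with all 4 females below 0 and both males above it. The flag does not show that mean directions agreed between the sexes in the others. The flagged difference was TFR2 in parotid minus sublingual gland. It ran from -0.55 to -0.10 in the 4 females and from 0.06 to 0.07 in the 2 males. The mean in females minus that in males was -0.39. That difference was not tested.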

How the results depend on the processing

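HAMP, TFR2, CP and FTL were higher in liver than in each other tissue under all 13 alternatives run, as were FTH1 and SLC40A1 against parotid and the submandibular gland. The filter of 5 TPM gives no value for TFRC and HFE. Counts of iron genes called between other tissues moved. Without the 3 libraries they were 5 for parotid against pancreas (3 with them), 4 for submandibular gland against pancreas (2), 2 for sublingual gland against pancreas (1) and 3 for submandibular against sublingual gland (1). Calls over all genes also rose in these pairs, as given below. Trimmed-mean scaling gave 3 for sublingual gland against pancreas and 0 for parotid against sublingual gland (4). With only the 12 libraries of a pair, parotid against sublingual gland gave 2, and submandibular against sublingual gland gave 0, as it did with no replicate block (no animal term) and with no filter. Leaving out each animal gave 2 to 5 for parotid against pancreas, 1 to 4 for submandibular gland against pancreas, 1 to 3 for sublingual gland against pancreas, 0 to 5 for parotid against sublingual gland and 0 to 3 for submandibular against sublingual gland; the highest came without animal 4 or 6.

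For the 53 other iron and haem genes, the counts without the 3 libraries were 12 for parotid against pancreas (6 with them), 16 for submandibular gland (4) and 19 for sublingual gland (9) against pancreas, 37 for parotid (20) and 35 for submandibular gland (18) against sublingual gland. Over all 13550 genes the counts in the same order were 3815 (2141 with them), 4731 (1316), 5116 (1887), 9398 (5625) and 9442 (3787). Trimmed-mean scaling gave 9 for submandibular and 15 for sublingual gland against pancreas, and 11 and 11 for parotid and submandibular gland against sublingual gland. The filter of 5 TPM gave 3, 2 and 13 for parotid against pancreas, submandibular gland against pancreas and parotid against sublingual gland, with fewer genes tested. Only the 12 libraries gave 7 for submandibular gland against pancreas and 4 against sublingual gland. Leaving out each animal gave 17 to 35 for liver against pancreas (27), 4 to 11, 2 to 10 and 5 to 17 for parotid, submandibular and sublingual gland against pancreas, and 14 to 30 and 5 to 31 for parotid and submandibular against sublingual gland.

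Directions that turned were of differences under the threshold in the analysis as reported. Trimmed-mean scaling turned HAMP in parotid minus sublingual gland to 0.25, TFRC in liver minus submandibular gland to -0.17, HFE in liver minus parotid to -0.25 and in liver minus pancreas to -0.02, SLC40A1 in parotid minus sublingual gland to 0.01, and SLC11A2 in liver minus submandibular gland to -0.36 and in submandibular minus sublingual gland to 0.15. Without the 3 libraries HFE in liver minus submandibular gland was 0.27 and SLC40A1 in submandibular minus sublingual gland -0.23. Leaving out each animal gave -0.06 to 0.51 for TFRC and -0.39 to 0.13 for SLC11A2 in liver minus sublingual gland, -0.25 to 0.30 for HFE in liver minus submandibular gland, and -0.19 to 0.67 for SLC40A1 in submandibular minus sublingual gland. The ferritin ratio with no replicate block kept its differences, with an exact permutation p of 0.039 for liver minus sublingual gland (-0.94) and 0.013 for parotid minus pancreas (0.60), before adjustment.

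Over all genes, calls moved more than 1.5 times without the 3 libraries for liver against pancreas (4114 to 7058), parotid (2141 to 3815), submandibular (1316 to 4731) and sublingual gland (1887 to 5116) against pancreas, and parotid (5625 to 9398) and submandibular (3787 to 9442) against sublingual gland. Trimmed-mean scaling gave 2178 and 2890 for submandibular and sublingual gland against pancreas, 97 for parotid against submandibular gland (47), and 2376 and 1995 against sublingual gland. Only the 12 libraries gave 2582, 1049, 0 and 666 for submandibular and sublingual gland against pancreas, parotid against submandibular and submandibular against sublingual gland. The filter of 5 TPM gave 2726 for liver against sublingual gland (4273), 1183 for sublingual gland against pancreas and 29 for parotid against submandibular gland. Leaving out an animal moved the counts of liver against pancreas (2817 to 6575) and of the 6 pairs without liver by over 1.5 times, most for submandibular against sublingual gland (1281 to 8865). The causes were not tested. Depth is unknown, so the precision of TFRC, near 1 TPM, cannot be given.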
